A study of Rattus norvegicus with 6 samples.

Results

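The mitotic spindle and kinetochore genes are 50 genes, chosen by name, whose products drive the entry into mitosis, build the spindle, attach chromosomes to it and split the cell. A row of that name was held in the gene table for 49 of them, out of 30957 genes, and Ccnb2 was not analysed here. They were measured by RNA sequencing in pieces of sciatic nerve from adult male Sprague-Dawley rats, with 3 crushed nerves set against 3 intact nerves from the other side of the body. The labels name no transgene or drug in either group, and the study's methods place the collection of the proximal stump within the first week after the crush. The labels give no time point. Which side was crushed is stated differently in the methods and in the series' design text. The labels call the samples biological replicates, and the p-values below measure the spread between these nerves.

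In a cell that is about to divide, Cdk1 bound to a cyclin starts mitosis, kinesins and microtubule binders build the spindle, and the kinetochore, a protein assembly on each centromere, holds its microtubules. The spindle checkpoint keeps the anaphase-promoting complex (APC/C) silent until every kinetochore is attached, after which the sister chromosomes separate and the cell is pinched in 2 by the cytokinesis machinery. In an intact adult nerve few cells divide, and after an injury Schwann cells and other cells of the stump re-enter the cell cycle, so the genes of mitosis are commonly read as a measure of proliferation. In RNA from a whole nerve, fewer cells of a type and less RNA per cell cannot be told apart.

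The libraries held between 24844371 and 27139360 counts. Intact nerve 1 stood apart from the other nerves of its group, because the counts of replicates differed by 11.4 and 11.8 times sampling noise (chi-square per degree of freedom) in the pairs with intact nerve 1 and by 4.58 times in the other intact pair. The pairs of crushed nerves differed by 3.27 to 7.3 times. Several defining markers of the labelled tissue were almost absent from all 6 libraries. Over the 6 nerves together, the myelin gene Mbp had 1 count, the Schwann cell factor Sox10 had 1, and Mag, Gap43 and Cdh19 had 0. All 7 Schwann cell markers with a row stayed under 1 FPKM in every nerve, and their summed level was 0.938 to 1.03 FPKM in intact and 0.581 to 0.661 FPKM in crushed nerves. FPKM is the number of sequenced fragments of a gene, scaled by the length of its transcript and by the size of the library. The highest of them was the receptor Erbb3, with 0.825 to 0.89 FPKM in intact and 0.559 to 0.602 FPKM in crushed nerves (log2 fold change -0.59, adjusted p = 0.0222). Of 13 macrophage markers, 11 stayed under 1 FPKM in every nerve and 6 had no count at all, among them Ptprc, and the list summed to 2.22 to 3.19 FPKM in intact and 2.47 to 3.84 FPKM in crushed nerves. The myelin list summed to 36.5 to 37.2 FPKM in intact and 38.5 to 40.4 FPKM in crushed nerves, led by Cnp (19.0 to 23.7 FPKM), which is also made outside myelin. Next were Pmp22 (9.82 to 10.9 FPKM) and Prx (4.78 to 6.0 FPKM), and 4 of the 8 myelin markers stayed under 1 FPKM in every nerve. Fibroblast markers summed to 100.01 to 107 FPKM in intact and 83.9 to 95.9 FPKM in crushed nerves, of which Thy1 alone gave 73.5 to 95.7 FPKM. Of the 8 fibroblast markers, 5 stayed under 1 FPKM in every nerve and 4 had no count at all (Dcn, Col1a2, Lum and Postn). Mural cell markers summed to 24.4 to 26.4 FPKM in intact and 19.7 to 20.2 FPKM in crushed nerves, mostly from Cspg4 (17.7 to 23.0 FPKM), and endothelial markers to 0.769 to 1.02 FPKM and 0.526 to 0.765 FPKM. In every nerve 3 of the 6 mural markers and all 5 endothelial markers with a row stayed under 1 FPKM. Besides Erbb3, 4 markers were lower in crushed nerves at an adjusted p under 0.05, where 1.65% of all genes tested were. They were the collagens Col1a1 (log2 fold change -0.69, adjusted p = 0.000662) and Col3a1 (-1.76, adjusted p = 0.0268) and the mural genes Pdgfrb (-0.77, adjusted p = 0.00106) and Cspg4 (-0.35, adjusted p = 0.00103). Col3a1 was near the floor, with 21 to 23 counts in intact and 3 to 10 in crushed nerves. The part of these cell types in the values below was not tested. The near absence of Schwann cell markers and of myelin markers such as Mbp and Mag goes against the labelled tissue. Intact and crushed nerve below therefore name the libraries as they were labelled, and their identity was not tested.

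The genes of mitosis ranked high in the libraries labelled intact and in those labelled crushed. Of all 17425 genes with at least 1 count, each gene was given the percentile of its mean FPKM within its group. The 49 mitotic genes had a median percentile of 90.7 in intact nerves and of 90.4 in crushed nerves. The lowest of them, Cenpa, stood at percentile 65.5 in intact and 65.2 in crushed nerves, and the highest stood at 97.6 in intact (Prc1) and 97.5 in crushed nerves (Kif20a). In intact nerves 26 of the 49 were in the top 10% of detected genes and 10 were in the top 5%. The same counts in crushed nerves were 27 and 11, and 39 of 49 were in the top 20% in both groups. Their median level was 54.3 to 59.3 FPKM per nerve, against a median of 5.46 to 5.62 FPKM for all detected genes. The median of the genes that passed the expression filter, as all 49 did, was 12.6 to 12.9 FPKM.

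**Figure D1:**
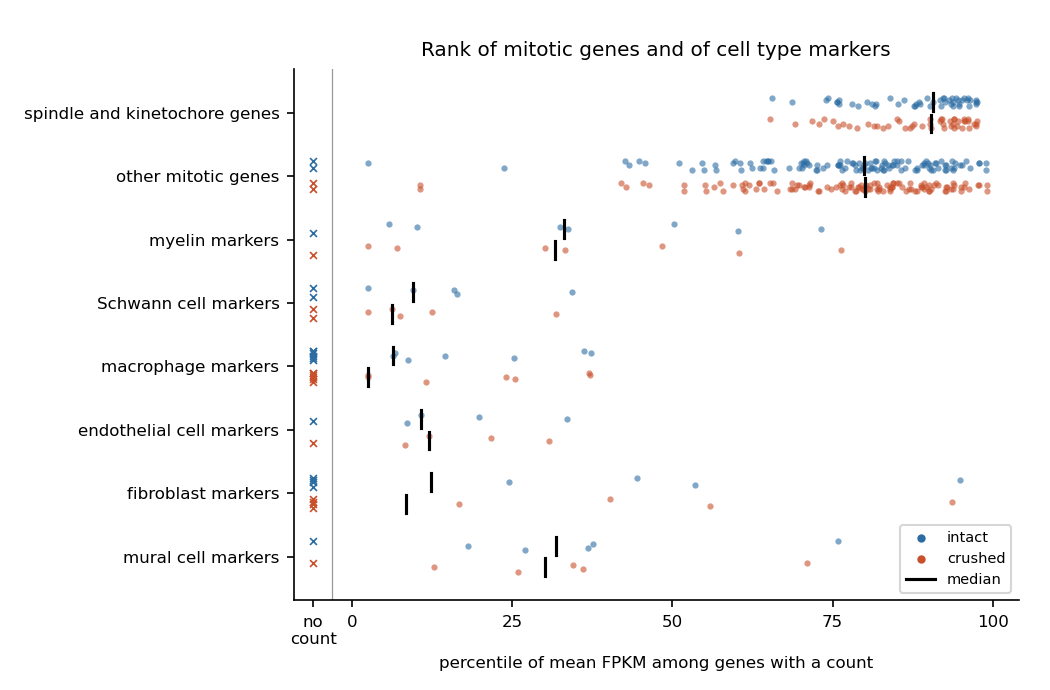
Percentile of the mean FPKM among the 17425 genes with a count (horizontal axis), with 1 point per gene, for the 49 spindle and kinetochore genes, for the other mitotic genes and for 6 lists of cell type markers. Blue points are intact and orange points crushed nerves, crosses at the left are genes with no count in any nerve, and black lines are medians, with genes without a count set to 0. The medians of the spindle and kinetochore genes lie at 90.7 and 90.4, and those of the Schwann cell markers at 9.55 and 6.22.

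Together the 49 genes took between 1.18% and 1.23% of all counts of a nerve, although they made up 0.281% of the detected genes. Detected genes include those that failed the expression filter, and counts, unlike FPKM, are not scaled by length. The median length implied by counts and FPKM was 3612 bases for the members and 2396 bases for all genes tested. Mki67, the proliferation antigen that coats mitotic chromosomes, ranked 32 of all genes by mean count, and Top2a, the topoisomerase that untangles sister chromosomes, ranked 66. Their implied lengths were 9880 and 6328 bases. Each member had at least 400 counts in every nerve, and the largest count of a member was 43837. Level and order were nearly the same in both groups, as the Spearman correlation between the group means of the 49 genes was 0.997, a description across genes that share their libraries and their lengths. The largest shift in percentile between groups was 2.69 points, for Spc24. The length implied by counts and FPKM was the same in every nerve for each gene, from 865 bases for Spc24 to 10069 bases for Cenpf. That follows from how FPKM is scaled and does not show that the lengths are right. Comparisons of FPKM between genes depend on these lengths, which were not tested.

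**Figure D2:**
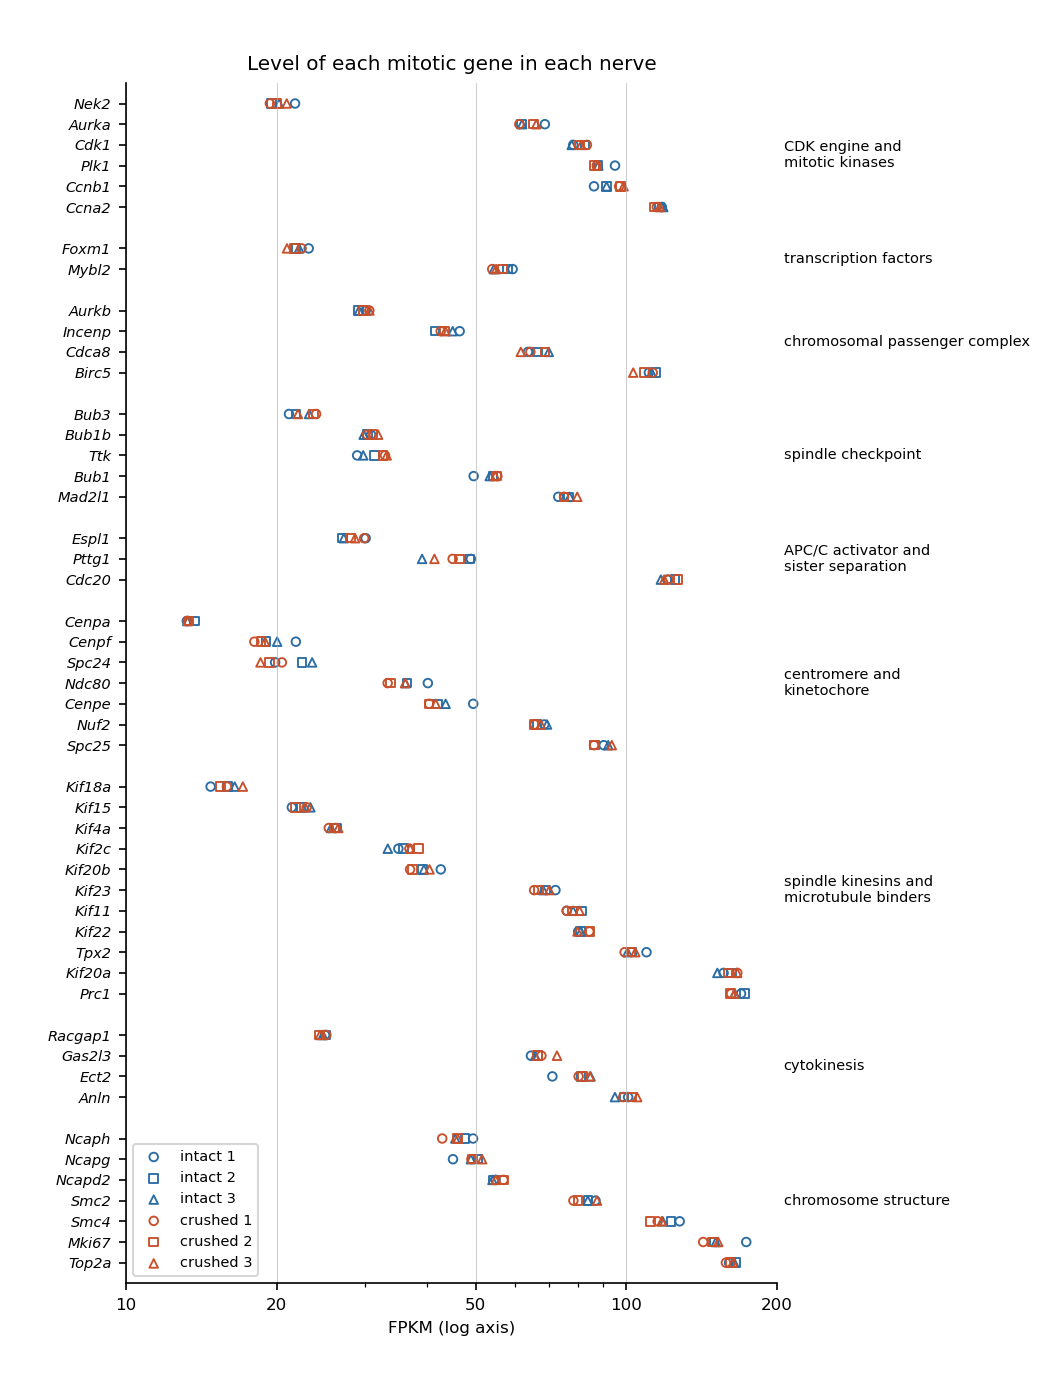
FPKM on a log axis (horizontal) of each of the 49 mitotic genes in each of the 6 nerves, grouped by role and ordered by mean level within a role. Blue marks are the 3 intact and orange marks the 3 crushed nerves. The levels run from 13.2 FPKM (Cenpa) to 174 FPKM (Mki67), and the marks of the groups lie close together for every gene.

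Many genes of mitosis are switched on late in the cell cycle through promoters that carry a cell cycle homology region (CHR), bound by the MuvB complex, and CCAAT boxes, bound by NF-Y. Promoters of the RefSeq annotation (rat build GRCr8, 250 bases before to 50 bases after the start of the gene) were matched by symbol for 43 of the 49 genes, and Aurkb, Ccna2, Foxm1, Incenp, Racgap1 and Tpx2 were not matched. The letters searched, on both strands, were TTTGAA for the CHR and CCAAT for the CCAAT box. A CHR was found in 29 of 43 promoters (67.4%), against 19.4% of all 27457 genes with a promoter and 12.5% of the 8459 genes that were both tested and matched. A CCAAT box was found in 31 (72.1%), against 39.6% and 39.4%. Both motifs were found in 23 (53.5%), against 7.96% and 5.17%, and they shared bases in 2 member promoters. A match of letters is a description and not a bound site. The stretches below run from 100 bases before to 20 bases after the start of the gene, 5′ to 3′ on the strand of the gene, and capitals mark TTTGAA and CCAAT or their complements TTCAAA and ATTGG. The first 6 were chosen because they carry both motifs and belong to 5 of the roles described below, Ccnb1 because it carries CCAAT boxes alone, and Mybl2 because it carries neither.
Cdk1, chr20:19265193-19265312, plus strand: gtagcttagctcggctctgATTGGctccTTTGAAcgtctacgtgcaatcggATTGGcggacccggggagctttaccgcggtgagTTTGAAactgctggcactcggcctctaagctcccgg
Top2a, chr10:84473074-84473193, minus strand: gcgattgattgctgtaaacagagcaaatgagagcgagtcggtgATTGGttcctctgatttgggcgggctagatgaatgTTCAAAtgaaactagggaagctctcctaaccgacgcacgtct
Plk1, chr1:186147558-186147677, plus strand: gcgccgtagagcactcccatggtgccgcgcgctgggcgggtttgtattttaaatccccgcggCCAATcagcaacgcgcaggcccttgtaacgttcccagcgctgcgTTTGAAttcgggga
Cdc20, chr5:137255780-137255899, minus strand: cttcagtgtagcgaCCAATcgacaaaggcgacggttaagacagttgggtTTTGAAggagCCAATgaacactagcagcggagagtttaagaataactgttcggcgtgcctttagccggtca
Prc1, chr1:143659381-143659500, plus strand: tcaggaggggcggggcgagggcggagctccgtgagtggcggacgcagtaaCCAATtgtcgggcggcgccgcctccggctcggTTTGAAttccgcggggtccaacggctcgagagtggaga
Cenpf, chr13:103760867-103760986, minus strand: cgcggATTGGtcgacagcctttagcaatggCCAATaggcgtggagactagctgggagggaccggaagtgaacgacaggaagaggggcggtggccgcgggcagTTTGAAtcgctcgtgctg
Ccnb1, chr2:33655206-33655325, minus strand: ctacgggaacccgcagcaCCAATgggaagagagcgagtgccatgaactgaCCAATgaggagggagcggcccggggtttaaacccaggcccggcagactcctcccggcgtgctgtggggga
Mybl2, chr3:172124705-172124824, plus strand: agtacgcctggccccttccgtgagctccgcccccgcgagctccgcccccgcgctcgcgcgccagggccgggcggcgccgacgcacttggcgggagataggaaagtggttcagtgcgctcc
In these 8 stretches the CHR of Plk1, Cenpf, Prc1 and Top2a lies nearer to the start of the gene than their CCAAT box, in Cdc20 a CCAAT box lies nearer than the CHR, and Cdk1 holds 2 of each. Of the remaining members, 6 carried a CHR alone (Anln, Bub1b, Kif15, Mad2l1, Ndc80 and Nuf2), and 8 carried CCAAT boxes alone, Ccnb1 among them. Neither motif was found in the promoters of Aurka, Bub1, Kif18a, Kif2c, Mybl2 and Ncaph. The levels of these 6 genes ran from Kif18a with 14.8 to 17.1 FPKM to Aurka with 61.1 to 68.7 FPKM.

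The comparison of crushed with intact nerves asks whether a nerve with a lesion held more transcripts of the mitotic machinery. No member was called in either direction. With the limits of the study (an absolute log2 fold change above 1 and p under 0.001), 0 of 49 were higher and 0 were lower in crushed nerves, where 0.218% and 0.0646% of all 12393 genes tested were called. With an adjusted p under 0.05 (edgeR quasi-likelihood test, Benjamini-Hochberg over all genes tested), 0 were higher and 0 were lower, against 1.47% and 1.65% of all genes tested. At an unadjusted p under 0.05, edgeR gave 2 higher (Ccnb1 and Ttk) against 6.71% of all genes, and 5 lower (Cenpe, Cenpf, Ndc80, Spc24 and Smc4) against 9.5%. DESeq2 gave 2 higher and 4 lower, against 5.4% and 7.38% of all genes, and limma on log2 FPKM gave 3 higher and 1 lower, against 8.56% and 7.25%. The lowest adjusted p of a member was 0.186, for Cenpf. In 3 members (Ccnb1, Ttk and Kif2c) every crushed nerve lay above every intact nerve, against 10.8% of all genes tested, and in 7 (Ccna2, Plk1, Cenpe, Cenpf, Ndc80, Prc1 and Smc4) every crushed nerve lay below, against 12.2%. These shares, 6.12% and 14.3% of the members, were near the background.

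The data bounded the differences closely. Log2 fold changes (crushed minus intact) ran from -0.19 (Spc24) to 0.11 (Ttk). Of the members 19 were above and 30 below 0, where 6126 and 6267 of all 12393 genes tested were. The median of the members was -0.03, against -0.0017 for all genes tested. The outermost limits of the 95% intervals were -22.9% and 15.6%, so that a doubling was outside the interval of each of the 49. For 44 of the 49 genes the whole interval lay within 0.25 log2 units of 0, which is 15.9% lower to 18.9% higher, and the same held for 47.7% of all genes tested. The median standard error was 0.0447 for the members and 0.0744 for all genes tested. The replicates of a group also lay close together, with a median coefficient of variation of 3.59% in intact and 2.7% in crushed nerves, where all genes tested had 6.67% and 4.78%. The counts alone would give a median of 1.5% for the members and of 3.58% for all genes tested.

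**Figure D3:**
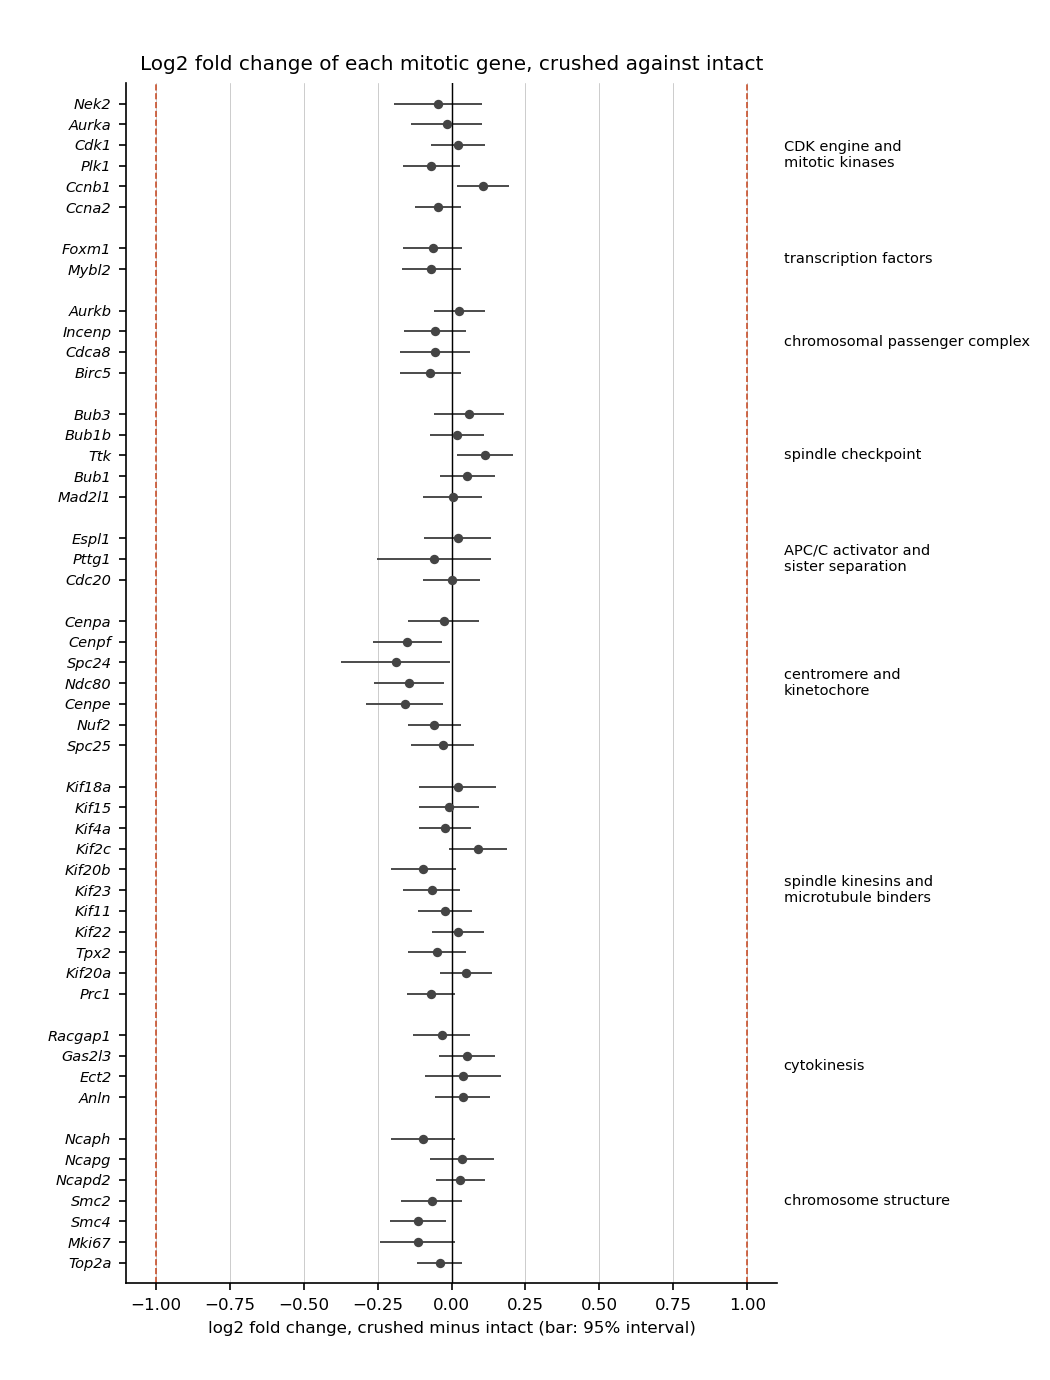
Log2 fold change of each of the 49 mitotic genes, crushed minus intact, with its 95% interval from the edgeR fit (horizontal axis), grouped by role as in the plot of levels. Dashed orange lines mark a log2 fold change of 1 in either direction. All intervals lie between -0.37 and 0.21.

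Cyclins and kinases of mitotic entry stood high, apart from Nek2. Cdk1, the kinase that starts mitosis, stood at 78.3, 82.7 and 77.8 FPKM in the intact nerves and at 83.4, 80.6 and 81.2 FPKM in the crushed nerves. These ranges overlap, with a log2 fold change of 0.02 ± 0.04 (SE) and an adjusted p of 0.846. For Ccnb1, the cyclin that activates Cdk1 at the onset of mitosis, the intact nerves gave 86.2, 91.3 and 91.3 FPKM and the crushed nerves 96.7, 97.3 and 98.7 FPKM. All 3 crushed nerves were above the intact ones, by 0.11 ± 0.04 on the log2 scale, and this did not pass the test over all genes (adjusted p = 0.22). Plk1, a kinase needed for spindle poles and for kinetochores, had 94.9, 87.7 and 87.9 FPKM in intact and 87.3, 86.3 and 87.4 FPKM in crushed nerves. The crushed nerves lay just below the intact ones, and the log2 fold change of -0.07 (adjusted p = 0.482) was -0.02 without intact nerve 1. Ccna2, the cyclin of S phase and early mitosis, had the highest level of its role (114 to 118 FPKM), although its locus lies wholly inside that of Exosc9, which had 597 to 743 counts where Ccna2 had 8736 to 9397. In FPKM the order Cdk1, Ccnb1, Ccna2 held without overlap between neighbours over the 6 nerves. By counts Cdk1 lay above Ccnb1 in each nerve. Aurka, the kinase of the spindle poles, spanned 61.1 to 68.7 FPKM, and Nek2, a kinase of centrosome separation, 19.4 to 21.8 FPKM.

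Foxm1 and Mybl2 are the transcription factors that drive the late cell cycle genes. Foxm1 was at 23.2, 21.9 and 22.2 FPKM in intact and at 22.4, 21.7 and 21.0 FPKM in crushed nerves (log2 fold change -0.06 ± 0.05, adjusted p = 0.532). Mybl2 was at 59.3, 57.8 and 54.3 FPKM in intact and at 53.9, 56.5 and 54.9 FPKM in crushed nerves (log2 fold change -0.07 ± 0.05, adjusted p = 0.494). Without intact nerve 1 the log2 fold change was -0.0307 for Foxm1 and -0.0339 for Mybl2. The groups overlapped for both genes, and Mybl2 lay above Foxm1 in every nerve. A 5S rRNA gene overlaps the locus of Mybl2 and had at most 1 count in a nerve.

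The chromosomal passenger complex corrects faulty attachments and guides cytokinesis, with Aurkb as its kinase. Aurkb had 30.1, 29.1 and 29.2 FPKM in intact and 30.6, 29.9 and 30.7 FPKM in crushed nerves. Birc5 (survivin), which targets the complex to the centromere, had 111, 114 and 112 FPKM in intact and 113, 109 and 103 FPKM in crushed nerves. Both genes overlapped between the groups, with log2 fold changes of 0.03 ± 0.04 for Aurkb (adjusted p = 0.795) and -0.07 ± 0.05 for Birc5 (adjusted p = 0.487). In FPKM the 4 subunits had unlike levels in a fixed order, with no overlap between neighbours. It ran from Aurkb (29.1 to 30.6 FPKM) through the scaffold Incenp (41.5 to 46.4 FPKM) and Cdca8 (borealin, 61.5 to 70.0 FPKM) to Birc5 (103 to 114 FPKM). The implied lengths were 5233 bases for Aurkb and 873 bases for Birc5. By counts Aurkb (3797 to 4351) lay above Birc5 (2243 to 2674), so this order depends on the lengths. The ratio of Birc5 to Aurkb in FPKM was 3.82 ± 0.126 (SD, n = 3) in intact and 3.56 ± 0.173 in crushed nerves.

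All 5 genes of the spindle checkpoint had log2 fold changes above 0, with a median of 0.05, and none passed the test over all genes. Of all 12393 genes tested, 6126 were above 0. The 5 checkpoint genes were also above 0 under each scaling alternative. With library sizes alone, however, 6851 of all 12393 genes tested were above 0, and with limma on log2 FPKM 6872 were. Without intact nerve 1 or without crushed nerve 3 only 4 of the 5 checkpoint genes were above 0. Bub1b (BubR1), a part of the complex that inhibits the APC/C, was at 30.9, 30.4 and 29.9 FPKM in intact and at 30.3, 31.2 and 31.9 FPKM in crushed nerves (log2 fold change 0.02 ± 0.04, adjusted p = 0.869). Mad2l1, which binds Cdc20 at unattached kinetochores, was at 73.1, 76.6 and 77.0 FPKM in intact and at 75.1, 75.1 and 79.8 FPKM in crushed nerves (log2 fold change 0.0035 ± 0.0447, adjusted p = 0.979). The groups of both genes overlapped. Ttk (Mps1), the kinase at the top of the checkpoint, had the highest log2 fold change of the 49 genes (locus chr8:91368111-91405993 in Rnor_6.0, the build of the gene table). Its level was 29.0, 31.4 and 29.8 FPKM in intact and 32.9, 32.6 and 33.2 FPKM in crushed nerves. The groups did not overlap, but the difference of 0.11 ± 0.04 on the log2 scale (95% interval 1.4% to 15.6% higher) did not pass the test over all genes (adjusted p = 0.213). The kinase Bub1 spanned 49.5 to 55.2 FPKM, and Bub3, which carries Bub1 and Bub1b to the kinetochore, 21.2 to 24.0 FPKM. In order of FPKM Bub3 was lowest, Bub1b and Ttk could not be separated, and Bub1 and Mad2l1 followed without overlap. By counts Mad2l1 (2660 to 2901) lay below Bub1 (5686 to 6734).

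Cdc20 is the activator of the APC/C at anaphase, and Espl1 and Pttg1 are separase and its inhibitor securin. The intact nerves held 121, 125 and 117 FPKM of Cdc20 and the crushed nerves 122, 127 and 119 FPKM (log2 fold change 1.74e-05 ± 0.0433, adjusted p = 1.0). This was the value nearest to 0 among the genes described nerve by nerve. Espl1 spanned 27.1 to 30.1 FPKM and Pttg1 39.1 to 48.9 FPKM over the 6 nerves. Pttg1 had the widest interval of this role, -15.9% to 9.71%.

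The 7 centromere and kinetochore genes all had log2 fold changes below 0, with a median of -0.145, and none passed the test over all genes. Of all 12393 genes tested, 6267 were below 0, and genes measured in the same 6 libraries do not vary independently. The 7 were also below 0 under each scaling alternative and without any one nerve, and without intact nerve 1 their median was -0.0768. Kinetochore genes outside the members did not share this sign. Of the inner kinetochore, 7 were above and 9 below 0 (median -0.0092). Of the outer kinetochore, 9 were above and 4 below 0 (median 0.0191). Cenpf, a large protein of the outer kinetochore, was at 21.9, 19.1 and 20.1 FPKM in intact and at 18.1, 18.6 and 19.0 FPKM in crushed nerves. The groups lay just apart, with a log2 fold change of -0.15 ± 0.05 (adjusted p = 0.186), which was -0.0863 without intact nerve 1. Ndc80, the subunit that grips the microtubule, was at 40.1, 36.5 and 36.2 FPKM in intact and at 33.3, 33.8 and 36.1 FPKM in crushed nerves. Here too the groups lay just apart, with a log2 fold change of -0.14 ± 0.05 (adjusted p = 0.207), which was -0.0873 without intact nerve 1. Cenpe, a kinesin that carries chromosomes to the spindle equator, spanned 41.9 to 49.4 FPKM in intact and 40.3 to 41.6 FPKM in crushed nerves, and its log2 fold change of -0.16 (adjusted p = 0.204) was -0.0768 without intact nerve 1. Spc24 (locus chr8:22780725-22785671 in Rnor_6.0) behaved otherwise, with 19.9, 22.5 and 23.6 FPKM in intact and 20.5, 19.4 and 18.6 FPKM in crushed nerves, and its log2 fold change of -0.19 (adjusted p = 0.297) was -0.248 without intact nerve 1. Spc24 and Nek2 had fewer counts in each nerve, but Cenpa, the histone variant that marks the centromere, had the lowest FPKM of the 49 genes. It was at 13.2, 13.7 and 13.3 FPKM in intact and at 13.3, 13.4 and 13.3 FPKM in crushed nerves (log2 fold change -0.03 ± 0.05, adjusted p = 0.861).

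Within the Ndc80 complex, whose 4 subunits form a single rod, the transcript levels were far from equal. Spc24 had 18.6 to 23.5 FPKM over the 6 nerves, Ndc80 33.3 to 40.1 FPKM, Nuf2 65.4 to 69.4 FPKM and Spc25 86.2 to 93.5 FPKM. No neighbours in this order overlapped. Spc25 exceeded Spc24 by 4.1 ± 0.384 times in intact and 4.57 ± 0.425 times in crushed nerves (SD, n = 3). Spc24 has the shortest implied length of the members, 865 bases, and FPKM already divides by that length. By counts Ndc80 lay above Nuf2 and Spc25 in each nerve, so the order of the subunits depends on the implied lengths.

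**Figure D4:**
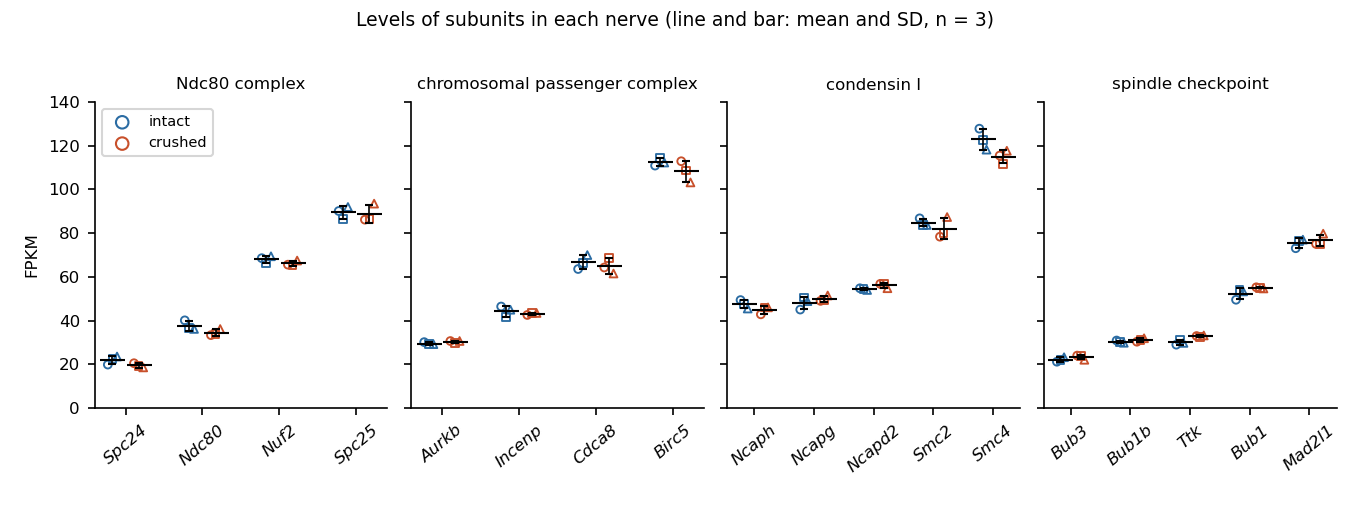
FPKM (vertical axis, from 0) of the subunits of the Ndc80 complex, the chromosomal passenger complex, condensin I and the spindle checkpoint in each nerve. Blue marks are intact and orange marks crushed nerves, and black lines with bars are means and SD (n = 3). The subunits of a complex differ among themselves, as Spc24 (18.6 to 23.5 FPKM) and Spc25 (86.2 to 93.5 FPKM) do, while the groups lie side by side.

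The 11 spindle kinesins and microtubule binders spanned the range from Kif18a to Prc1. Kif11 (Eg5), which pushes the spindle poles apart, was at 76.0, 81.4 and 78.3 FPKM in intact and at 76.0, 78.1 and 80.6 FPKM in crushed nerves (log2 fold change -0.02 ± 0.04, adjusted p = 0.836). Prc1, which bundles the microtubules of the central spindle, was at 169.5, 172.1 and 164.6 FPKM in intact and at 161.9, 161.5 and 164.5 FPKM in crushed nerves. Its crushed nerves lay below all intact ones by a narrow margin, with a log2 fold change of -0.07 ± 0.04 (adjusted p = 0.384). Kif20a (MKLP2), which brings the chromosomal passenger complex to the central spindle, was at 156.4, 162.3 and 152.0 FPKM in intact and at 166.6, 159.6 and 166.5 FPKM in crushed nerves. These overlapped (log2 fold change 0.05 ± 0.04, adjusted p = 0.595), and 1910 bases of its locus are shared with Cdc23, which had 1788 to 2076 counts where Kif20a had 11034 to 13205. Kif18a, which dampens chromosome oscillation, was at 14.8, 16.0 and 16.5 FPKM in intact and at 15.9, 15.4 and 17.1 FPKM in crushed nerves (log2 fold change 0.02 ± 0.06, adjusted p = 0.901). Kif2c (MCAK), which depolymerises microtubules at the centromere, was higher in each crushed nerve (36.9 to 38.5 FPKM) than in each intact nerve (33.4 to 35.8 FPKM), with an adjusted p of 0.354. The Aurka activator Tpx2 stood at 99.2 to 109.7 FPKM and the chromokinesin Kif22 at 79.9 to 84.6 FPKM. Kif23 stood at 65.4 to 72.2 FPKM and Kif20b, a further kinesin of cytokinesis, at 37.0 to 42.6 FPKM. The chromokinesin Kif4a stood at 25.4 to 26.6 FPKM and the spindle kinesin Kif15 at 21.5 to 23.4 FPKM. Kif15 shares 3529 bases with RGD1311745, which had 72 to 426 counts.

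Of the cytokinesis genes, Anln (anillin), the scaffold of the contractile ring, was at 100.8, 98.9 and 94.9 FPKM in intact and at 98.5, 102 and 105 FPKM in crushed nerves (log2 fold change 0.04 ± 0.04, adjusted p = 0.716). Gas2l3, a linker of actin and microtubules at the midbody, was at 64.5, 66.6 and 65.8 FPKM in intact and at 67.6, 66.4 and 72.7 FPKM in crushed nerves (log2 fold change 0.05 ± 0.04, adjusted p = 0.585), and its log2 fold change was 0.0137 without crushed nerve 3. The groups of both overlapped. The study's long noncoding RNA lncARAT lies on the same strand over Gas2l3, and reads of it could be counted there. Ect2, which activates RhoA at the division plane, was lowest in intact nerve 1 (71.1 FPKM) and spanned 80.3 to 84.8 FPKM in the other 5 nerves. The partners of centralspindlin differed in level, with 24.4 to 25.1 FPKM for Racgap1 and 65.4 to 72.2 FPKM for Kif23, a ratio of 2.8 ± 0.0744 in intact and 2.74 ± 0.135 in crushed nerves (SD, n = 3).

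Among the genes of chromosome structure, Mki67 (locus chr1:207993895-208020454 in Rnor_6.0) was at 173.6, 149.6 and 150.9 FPKM in intact and at 142.4, 148.5 and 152.6 FPKM in crushed nerves. Intact nerve 1 was the highest and the groups overlapped, and the log2 fold change of -0.11 ± 0.06 (adjusted p = 0.367) was -0.03 without that nerve. Top2a was at 160.4, 165.6 and 164.3 FPKM in intact and at 158.1, 161.2 and 163.3 FPKM in crushed nerves (log2 fold change -0.04 ± 0.03, adjusted p = 0.618). The 95% interval of Mki67 was -15.4% to 0.912% and that of Top2a -7.72% to 2.52%. Condensin I, which compacts the chromosomes, had subunit levels from Ncaph (42.8 to 49.4 FPKM) and Ncapg (45.0 to 51.5 FPKM), whose ranges overlapped, through Ncapd2 (54.0 to 56.8 FPKM) and Smc2 (78.4 to 87.4 FPKM) to Smc4 (112 to 128 FPKM). Smc4 was lower in each crushed nerve than in each intact nerve, with a log2 fold change of -0.11 ± 0.04 (adjusted p = 0.213), which was -0.0763 without intact nerve 1. A small nucleolar RNA, snoU85, lies inside Ncapd2 and had 898 to 1860 counts where Ncapd2 had 5594 to 6427. Other small RNA genes inside Tpx2 and Ect2 had 0 counts, and whether the counting used the strand was not given in the sources used here.

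The nerves differed a little in their mitotic transcripts, and the differences did not follow the groups alone. Intact nerve 1 held the highest value of 20 of the 49 genes (40.8%, against 26.8% of all genes tested). It held the lowest value of 10 (20.4%, against 25.9% of all genes tested). Crushed nerve 1 held the lowest value of 17 genes (34.7%, against 14.3% of all genes tested). The median deviation of the 49 genes from their mean over the 6 nerves was 0.0241 in intact nerve 1, 0.00859 in intact nerve 2 and -0.00426 in intact nerve 3 (log2 units), and in the same order -0.0289, -0.0183 and 0.00115 for the crushed nerves. The order depended on the scaling, since with library sizes alone crushed nerve 3 and intact nerve 1 shared the highest median of 0.0103, and crushed nerve 1 was again lowest at -0.0193. Leaving out intact nerve 1 moved the median log2 fold change of the members from -0.03 to -0.02.

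**Figure D5:**
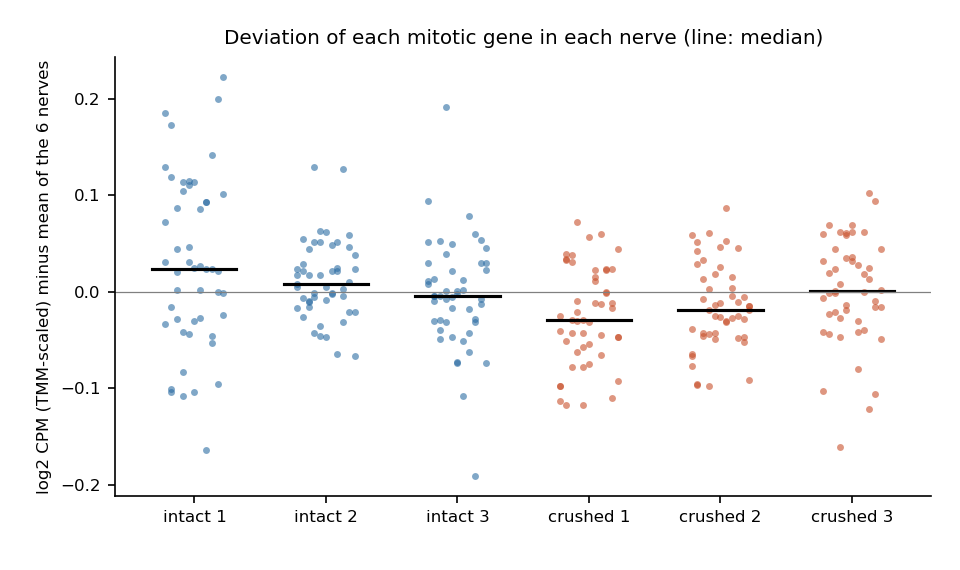
Deviation of the log2 CPM (counts scaled by library size and TMM factors) of each of the 49 mitotic genes from its mean over the 6 nerves (vertical axis, log2 units), with 1 point per gene and a black line at the median of each nerve. Blue points are intact and orange points crushed nerves. The medians run from -0.0289 (crushed nerve 1) to 0.0241 (intact nerve 1), and the points of all nerves overlap.

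The rest of the mitotic machinery had a lower median rank than the members, and its median rank too was nearly the same in both groups. Of 128 further genes of the kinetochore, spindle, cohesin, the APC/C, mitotic entry and cytokinesis and of the MuvB and pocket protein regulators, 117 had a row. Haus1 and Haus2 had 2 rows each, which made 119 rows, and 115 of these were tested. Their median percentile was 79.9 in intact and 80.0 in crushed nerves, and their median log2 fold change was -0.0048, with 54 above and 61 below 0. At an adjusted p under 0.05, 1 was higher and 1 was lower, where 1.47% and 1.65% of all genes tested were called. Pds5b, which binds cohesin and regulates its release from chromosomes, rose from 21.3, 23.0 and 22.8 FPKM in intact to 27.1, 27.5 and 28.8 FPKM in crushed nerves (log2 fold change 0.30 ± 0.04, adjusted p = 0.00354). E2f5, a transcription factor that acts with pocket proteins, fell from 64.3, 61.1 and 60.5 FPKM to 44.8, 52.7 and 54.4 FPKM (log2 fold change -0.31 ± 0.07, adjusted p = 0.0463). The groups did not overlap for either gene. The call of E2f5 was lost when any one nerve was left out, under the replicate block, with library sizes alone and with limma, each of which left 0 genes called lower. The next by p were Rbbp4, a histone binder of the MuvB complex (log2 fold change 0.23, adjusted p = 0.0989), and Cdc25c, the phosphatase that activates Cdk1 (0.14, adjusted p = 0.16), on the side of higher values. On the other side were Kif13a, a kinesin of late cytokinesis (-0.14, adjusted p = 0.133), and Ube2c, the ubiquitin carrier of the APC/C (-0.19, adjusted p = 0.228). A row of Haus1 and a row of Haus2 were at 0 in every nerve, while the other Haus2 row had 68 to 102 counts.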

How the data were processed

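Total RNA of 3 crushed and 3 intact sciatic nerves was sequenced by the authors after removal of ribosomal RNA. The submitters' processing notes name HISAT2, StringTie 1.3.0 and the build Rnor_6.0. The deposited table holds counts per gene, not normalized, and FPKM values made by the authors, for each nerve. Whether counting used the strand was not given in the sources used here. The labels name a column kit for RNA, and the study's methods TRIzol and RNase R.

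Of 30957 genes, 12393 passed filterByExpr, and their counts were fitted without a block by edgeR 4.0.16 (TMM, quasi-likelihood test, R 4.3.3), with p-values adjusted by Benjamini-Hochberg over all genes tested. SE and 95% intervals come from that fit. An exact permutation test of 3 against 3 nerves cannot go below p = 0.1. Percentiles used FPKM of the 17425 genes with at least 1 count. Alternatives were a replicate block, DESeq2 1.42.0, no filter, library sizes alone, limma 3.58.1 on log2(FPKM + 0.1), percentiles from CPM or from filtered genes, and leaving out each nerve. The edgeR fit was also run on counts simulated from the same kind of model, and no conclusion here rests on that run. Totals were 24844371 to 27139360 counts.

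The members and lists were chosen with earlier results of these data known. Values in every nerve are given for 1 or more members of each role set by hand, for the 3 highest and the 3 lowest by mean FPKM and for members with an adjusted p under 0.05. Ttk, Ccna2, Cenpe, Spc24, Kif2c, Ect2 and Smc4 were added after their values were seen. Promoter positions are on GRCr8, a build other than that of the counts, and were not joined to them.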

Additional observations from a re-analysis of the deposited data

How the results depend on the processing

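No member was called in either direction, by either call rule, under any alternative or without any single nerve. The median log2 fold change of the members was -0.0128 with library sizes alone and -0.0132 with limma on log2 FPKM, and -0.0352 to -0.0167 over the fits without a single nerve. Of the other mitotic genes, 2 were higher with DESeq2, and 0 were lower with library sizes alone, with limma and in each fit without a single nerve (0 to 0). The median percentile of the members was 91.9 (intact) and 92.2 (crushed) from CPM, 87.0 and 86.4 among filtered genes only, and 90.5 to 91.0 and 90.3 to 90.5 without a single nerve. The sign of the log2 fold change turned without a single nerve for 4 genes described nerve by nerve, with ranges of -0.0253 to 0.019 (Mad2l1), -0.0225 to 0.0551 (Kif18a), -0.0443 to 0.00634 (Kif11) and -0.0269 to 0.0276 (Cdc20). Among the other members it also turned for Aurka (-0.042 to 0.0443), Ect2 (-0.0237 to 0.0921), Espl1, Kif15, Ncapg, Nek2 and Pttg1. The cause was not tested.

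The labels do not say whether nerves with the same replicate number came from the same rat, and the deviations of same-numbered nerves correlated by only -0.00965, -0.00262 and 0.0709 over 12393 genes. With the replicate number as a block, 0 members were called, their median log2 fold change was -0.0302, and 0 of the other mitotic genes were lower. The median counting error of the members was 1.5%, beside a median spread between nerves of 3.59% and 2.7%. The deviations of the nerves under library sizes alone were added after seeing the data.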
